A study of Mus musculus with 4 samples.

Results

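Genes of epidermal growth factor (EGF) signalling were followed in single-cell libraries of mouse vaginal epithelium after ovariectomy. They are the ligands Areg, Ereg and Hbegf, the receptors Egfr, Erbb2 and Erbb3, and the feedback genes Errfi1, Dusp6, Spry2 and Spry4. These 10 members were taken by name from 25071 gene symbols, and each had a row in at least 1 of the 4 matrices. The OVX group comprised 2 libraries from C57BL/6 mice whose ovaries had been removed by surgery, and the WT group 2 libraries from C57BL/6 mice with ovaries. Cells of 5 mice were pooled for each library, with duplicate libraries for each group, but nothing states that a group's duplicates were independent pools, so the p-values measure the spread between libraries, which may be technical. The sources used here give neither the age of the mice nor the time since surgery. The assay was Drop-seq, which barcodes the RNA of single cells in droplets and tallies RNA molecules through unique molecular identifiers (UMIs).

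In EGF signalling, membrane-bound ligands such as amphiregulin (Areg), epiregulin (Ereg) and heparin-binding EGF (Hbegf) are cut from the cell surface and bind receptor tyrosine kinases. Egfr pairs with itself or with Erbb2, which has no known ligand of its own, and Erbb3, which binds neuregulins and has little kinase activity, signals through its partners. The receptors drive the ERK kinase cascade, which in turn induces its own brakes. Errfi1 binds and inhibits the Egfr kinase, Dusp6 removes phosphate from ERK, and the Sprouty proteins Spry2 and Spry4 restrain signalling upstream of ERK. In stratified epithelia the pathway is known for control of growth and differentiation of keratinocytes.

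The RNA of Dusp6 differed between the groups past the test's threshold and that of Areg was counted in WT cells alone, so the promoters of these genes are shown, from 250 bases before to 50 bases after the annotated start (RefSeq, GRCm38.p6, 5′ to 3′ on the gene's strand). The Dusp6 window is chr10:99262981-99263280, plus strand, with the core of ETS-factor sites, GGAA on either strand, in capitals. The Areg window is chr5:91139349-91139648, plus strand, with the cyclic AMP response element TGACGTCA in capitals.
Dusp6: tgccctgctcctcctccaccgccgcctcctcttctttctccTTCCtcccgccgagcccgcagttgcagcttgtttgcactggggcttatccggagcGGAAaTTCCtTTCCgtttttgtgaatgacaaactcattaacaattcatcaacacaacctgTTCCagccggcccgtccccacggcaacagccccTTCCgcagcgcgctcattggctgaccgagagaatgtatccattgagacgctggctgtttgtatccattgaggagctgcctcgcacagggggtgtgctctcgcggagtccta
Areg: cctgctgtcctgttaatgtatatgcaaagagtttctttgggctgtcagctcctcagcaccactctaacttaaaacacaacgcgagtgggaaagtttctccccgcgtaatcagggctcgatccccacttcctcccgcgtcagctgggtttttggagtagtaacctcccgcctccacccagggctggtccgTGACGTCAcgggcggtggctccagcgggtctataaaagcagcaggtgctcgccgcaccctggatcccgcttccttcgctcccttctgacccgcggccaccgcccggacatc
Motifs were searched on both strands in 32851 promoter windows. The Dusp6 window held 6 matches to GGAA, which 96.0% of all windows contain, and 0 matches to the AP-1 motif TGANTCA, to TGACGTCA, to the GC box GGGCGG and to AGGTCA, the repeated arm of the oestrogen response element. Most windows lack TGANTCA and AGGTCA, which were found in 7.81% and 16.3% of windows. The Areg window held 1 match to TGACGTCA, found in 1.79% of windows, and 2 matches to GGGCGG, found in 35.7%. These matches describe the letters of the windows only. RefSeq windows were matched for Areg, Egfr, Erbb2, Errfi1, Dusp6 and Spry2.

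The matrices held 10455820 UMIs. Analysis was limited to the 3480 OVX and 4966 WT cells that had 200 or more detected genes and no more than 20% mitochondrial UMIs. Kept cells held 798916 and 1636888 UMIs in OVX libraries 1 and 2, against 5830417 and 1930040 in WT libraries 1 and 2. Mitochondrial UMIs made up a median 8.97% and 9.69% of a cell's UMIs in OVX, against 4.00% and 3.85% in WT, and Malat1, a nuclear RNA, took 2.50% and 1.81% of UMIs in OVX, against 0.336% and 0.465% in WT. Between 2 and 15 cell barcodes were shared by any pair of libraries. Levels are counts per 1000000 (CPM), that is UMIs of a gene per 1000000 UMIs of the cells named, and fold changes are OVX over WT.

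Dusp6 was the member that passed the threshold between OVX and WT, and Spry2, described below, just missed it. In whole libraries it stood at 46.3 and 42.8 CPM in OVX, from 37 and 70 UMIs, against 10.8 and 7.25 in WT, from 63 and 14 UMIs. The OVX libraries lay close together and far above both WT libraries. The group means were 44.5 ± 2.51 in OVX and 9.03 ± 2.51 CPM in WT (SD, n = 2 libraries each). Dusp6 rose 4.35-fold, with a log2 fold change of 2.12 ± 0.43 (SE; edgeR quasi-likelihood test with Benjamini-Hochberg adjustment, adjusted p = 0.0341). It was the 1 member past the threshold of 7 tested, with 0 lower, where 5.11% of all 11495 genes tested passed, 2.58% as higher and 2.52% as lower. In summed libraries, fewer cells of a type and less RNA per cell cannot be told apart. The edgeR adjusted p of Dusp6 was 0.0655 without OVX library 1, 0.142 without OVX library 2 and 0.0589 in cells with at least 400 detected genes.

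**Figure D1:**
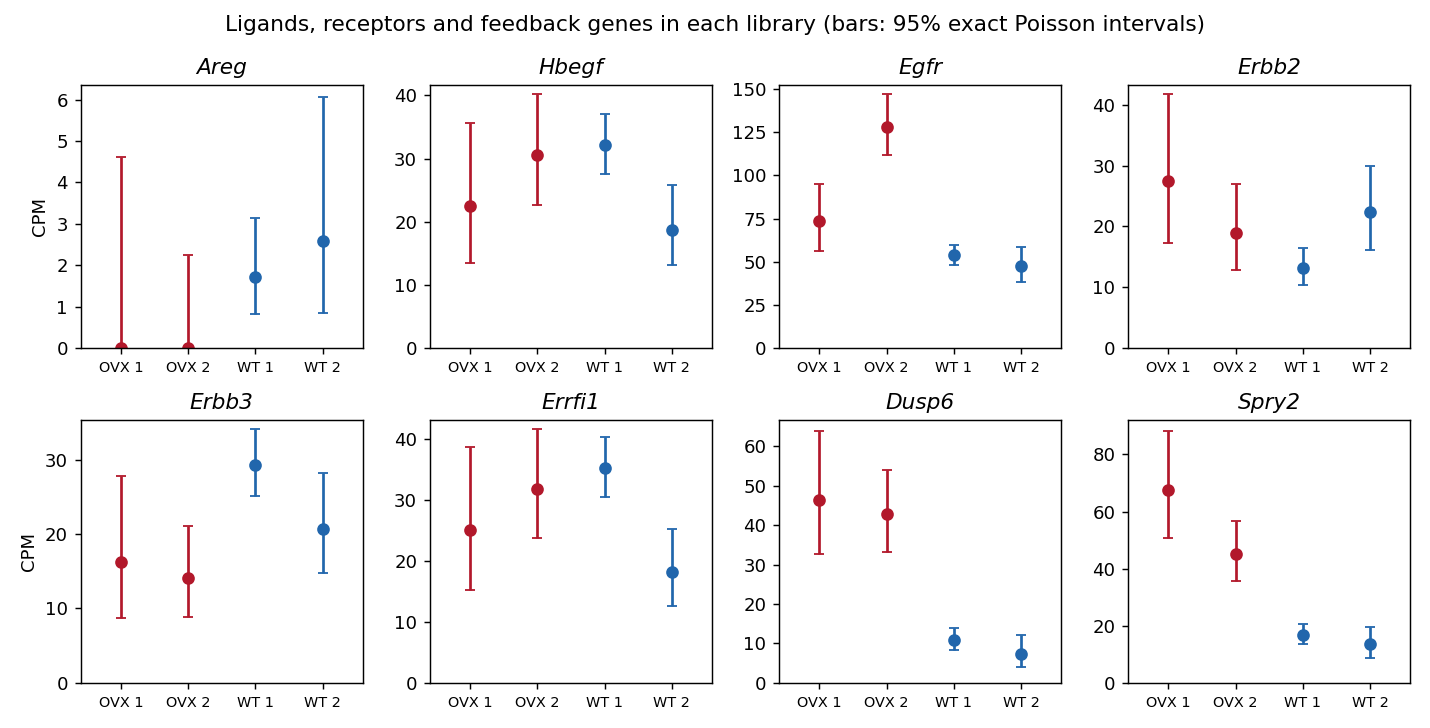
CPM (UMIs per 1000000 UMIs) in each whole library (kept cells) for 8 members, OVX libraries in red and WT libraries in blue. Points are library values and bars are 95% exact Poisson intervals, which cover counting error only. The Dusp6 points are 46.3 and 42.8 in OVX, against 10.8 and 7.25 in WT.

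Spry2, the Sprouty member with counts in all libraries, lay in the same direction and just missed the threshold. It stood at 67.6 and 45.2 CPM in OVX, from 54 and 74 UMIs, against 16.8 and 13.5 in WT, from 98 and 26 UMIs. The groups did not overlap, and the OVX libraries differed from each other more than the WT libraries did. The log2 fold change was 1.72 ± 0.42 (SE; edgeR adjusted p = 0.0579), and with scaling by total UMIs alone it was 1.88 (edgeR adjusted p = 0.0462). Without a filter on low counts the adjusted p was 0.0441, without WT library 1 it was 0.00734 and without WT library 2 it was 0.0184. Without OVX library 1 or 2 it was 0.373 and 0.197.

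Errfi1, the receptor's own inhibitor, did not pass. It stood at 25.0 and 31.8 CPM in OVX, against 35.2 and 18.1 in WT, so both OVX libraries lay between the WT libraries. Its log2 fold change was -0.05 ± 0.47 (SE; edgeR adjusted p = 0.969), a sign that turned with several settings. Spry4 had 0 UMIs in OVX library 1, 1 UMI in OVX library 2 and 0 in both WT libraries, which is under the limit of 3 counts, and no fold is given.

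Among the receptors none passed the threshold in whole libraries, and Egfr and Erbb3 had opposite signs. Egfr stood at 73.9 and 128 CPM in OVX, from 59 and 210 UMIs, against 53.7 and 47.7 in WT, from 313 and 92 UMIs. Both OVX libraries were above both WT libraries, with OVX library 2 well above OVX library 1. The log2 fold change was 0.88 ± 0.43 (SE; edgeR adjusted p = 0.311, unadjusted p = 0.0784).

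Erbb3 stood at 16.3 and 14.1 CPM in OVX, from 13 and 23 UMIs, against 29.3 and 20.7 in WT, from 171 and 40 UMIs. Both OVX libraries were below both WT libraries. The log2 fold change was -0.88 ± 0.44 (SE; edgeR adjusted p = 0.320). Erbb2 stood at 27.5 and 18.9 CPM in OVX, against 13.2 and 22.3 in WT, and the groups overlapped (log2 fold change 0.25 ± 0.47 SE, edgeR adjusted p = 0.821). The locus of Erbb2 (chromosome 11, 98412470 to 98437716) overlaps that of Mien1 on the other strand, and the sources used here do not say whether counting used strand.

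Of the ligands, Hbegf alone had enough counts to be tested. It stood at 22.5 and 30.5 CPM in OVX, from 18 and 50 UMIs, against 32.1 and 18.7 in WT, from 187 and 36 UMIs. The OVX values lay between the WT values, and the log2 fold change was -0.07 ± 0.46 (SE; edgeR adjusted p = 0.956). With total-UMI scaling it was 0.07.

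Areg had 0 UMIs in both OVX libraries, against 10 and 5 UMIs in WT, each in a different cell. These WT counts amount to 1.72 and 2.59 CPM. With the OVX group set at the limit of 3 counts, pooled WT Areg was 1.57-fold above OVX, a value that ignores the counting error of WT. The ratio of pooled counts, OVX over WT, was 0, with a 95% exact counting interval up to 0.888, which leaves out the spread between libraries. In basal-gated cells, with 0 UMIs in OVX and 10 in WT, this interval reached 1.62, so no drop is shown there. Areg did not pass the count filter, and without that filter its edgeR adjusted p was 0.157. Ereg had 0 UMIs in both OVX libraries, against 1 and 0 UMIs in WT, and no fold is given. Across the 7 tested members, 3 had OVX libraries above WT, 1 had them below and 3 overlapped. Of all tested genes, 50.3% had groups that did not overlap, 29.1% with OVX above and 21.2% with OVX below.

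**Figure D2:**
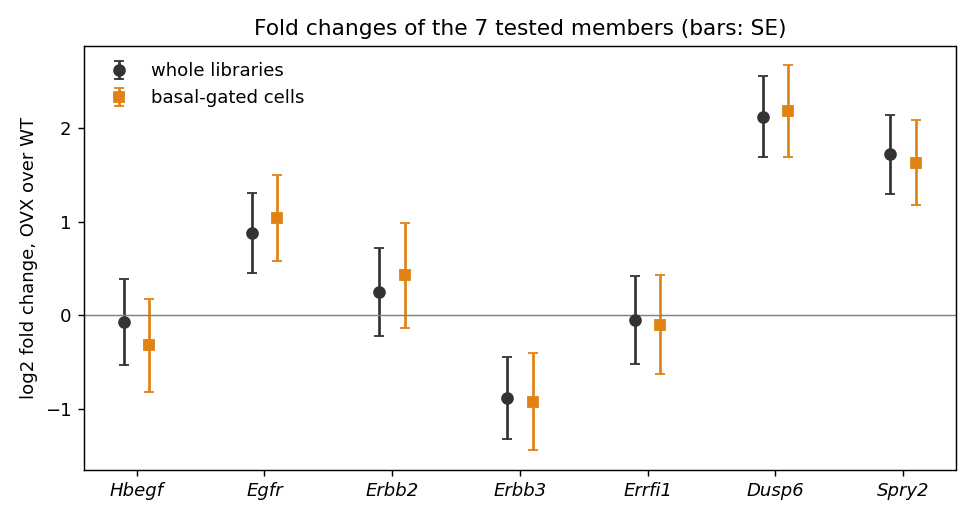
Log2 fold changes, OVX over WT, of the 7 tested members in whole libraries (circles) and basal-gated cells (squares), with SE bars from the edgeR fit of 2 libraries per group. Dusp6 is at 2.12 and 2.18, Spry2 at 1.72 and 1.63, and Hbegf, Errfi1 and Erbb2 lie within 1 SE of 0.

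Cells were then assigned to layers by marker UMIs. Under the majority gate a cell with at least 3 UMIs of basal and suprabasal markers went to the layer holding most of them, after cells with 2 or more UMIs of Krt7, Krt8 and Krt18 (luminal) and 3 or more of immune or stromal markers had been set apart. The basal gate, with the markers Krt5, Krt14 and Krt15, held 840 and 1270 cells in OVX, against 2360 and 1741 in WT. That is 53.4% and 66.6% of kept OVX cells, against 79.2% and 87.6% of kept WT cells. Ungated cells numbered 584 and 372 in OVX (37.1% and 19.5%), against 0 and 8 in WT. The basal markers summed to 6930 and 6760 CPM in whole OVX libraries, against 40000 and 23600 in WT. Whether fewer basal cells or fewer marker UMIs lie behind the lower OVX share was not tested. The suprabasal gate, with the markers Krt1, Krt10, Krt4, Krt13, Krtdap, Sbsn, Calm4 and Sprr1a, held 14 and 16 cells in OVX, against 73 and 111 in WT. The OVX numbers are under the minimum of 20 for a test. Between 40% and 60% suprabasal marker UMIs were found in 11 and 16 basal-gated OVX cells, against 53 and 118 WT cells. The gates are ranges of marker counts, not cell types. In WT the luminal gate was filled through Krt7 rather than Krt8 or Krt18, and the stromal gate of WT library 1, 101 cells, through Sparc with Col1a1 at 0.

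Within basal-gated cells the fold changes of the 7 tested members had the same signs as in whole libraries. These cells are part of the whole libraries and hold 1598060 of 2435804 OVX UMIs and 5795754 of 7760457 WT UMIs. The likeness of the 2 results is therefore not separate evidence. Dusp6 stood at 46.8 and 41.7 CPM in OVX, from 22 and 47 UMIs, against 10.8 and 6.69 in WT, from 45 and 11 UMIs. The groups did not overlap. It rose 4.52-fold (log2 2.18 ± 0.49 SE, edgeR adjusted p = 0.0405), again the 1 member called of 7 tested, with 0 lower, where 4.06% of 10623 genes passed, 1.82% as higher and 2.24% as lower. The call was lost without OVX library 1 (adjusted p = 0.116), without OVX library 2 (0.229), with the replicate block (0.0679), with DESeq2 (0.0641), with at least 400 genes per cell (0.0838) and when cells were gated after thinning to 400 UMIs (0.0875).

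Spry2 in basal-gated cells stood at 61.6 and 47.9 CPM in OVX, against 17.1 and 15.2 in WT (log2 fold change 1.63 ± 0.45 SE, edgeR adjusted p = 0.0820). Egfr stood at 80.8 and 141 in OVX, against 54.9 and 46.9 in WT (1.04 ± 0.46 SE, edgeR adjusted p = 0.272). Both genes had OVX libraries above the WT libraries without passing the threshold. The log2 fold change of Spry2 ran from 1.43 to 1.75 over all settings run in basal-gated cells. Of the 7 tested members, 3 had OVX libraries above WT, 1 had them below and 3 overlapped. Of all genes tested in basal-gated cells, 48.5% had groups that did not overlap, 26.7% with OVX above and 21.8% with OVX below. Erbb3 stood at 17.0 and 12.4 CPM in OVX, against 29.9 and 20.1 in WT (log2 fold change -0.92 ± 0.52 SE, edgeR adjusted p = 0.40). Hbegf, Erbb2 and Errfi1 overlapped between groups, with edgeR adjusted p of 0.797, 0.753 and 0.949.

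A further gate, added after the cell numbers of the majority gate were seen, separated layers by share. It called a cell suprabasal when at least 3 UMIs and 1% of its UMIs were suprabasal markers, and luminal with at least 2 UMIs of Krt8 and Krt18. Suprabasal cells then numbered 5 and 1 in OVX, against 455 and 329 in WT, and luminal cells 68 and 142 in OVX, against 1 and 1 in WT. Suprabasal genes outside the gate (Dsg1a, Dsc2, Lgals3, Krt6b, Cnfn and Lypd3) summed to 7130 and 7960 CPM in WT suprabasal cells, against 1980 and 2620 in WT basal cells. The gate's basal markers did not separate these cells, at 39700 and 25900 CPM in WT suprabasal cells, against 40100 and 23200 in WT basal cells. Basal genes outside the gate (Col17a1, Itga6, Itgb4, Trp63, Lamb3 and Dst) summed to 1420 and 1020 CPM in WT suprabasal cells, against 4230 and 2120. Luminal genes outside the gate (Wfdc2, Krt19, Cldn3, Pigr, Ltf and Muc1) summed to 2330 and 2220 in OVX luminal cells, against 570 and 590 in OVX basal cells. The OVX luminal cells also held basal markers, at 5840 and 6070 CPM, against 9280 and 7980 in OVX basal cells. Basal genes outside the gate summed to 611 and 1240 CPM in OVX luminal cells, against 1580 and 2410. With so few matching layers, a test of whether the OVX difference varied between layers was not run.

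Hbegf was higher in suprabasal than in basal WT cells under the share gate, and this call did not hold under the majority gate. Under the share gate it stood at 53.6 and 24.1 CPM in WT suprabasal cells, from 51 and 8 UMIs, against 27.8 and 17.1 in WT basal cells, from 135 and 27 UMIs. The suprabasal value was higher within each library, while the value of WT library 2 lay below the basal value of WT library 1. The log2 fold change, suprabasal over basal with library as a block, was 0.99 ± 0.25 (SE; edgeR adjusted p = 0.00968), the 1 call among 6 members tested, where 15.2% of 9742 genes passed, 6.81% as higher and 8.36% as lower. Under the majority gate, with 11 and 3 suprabasal UMIs, it was 1.25 ± 0.55 and did not pass (edgeR adjusted p = 0.188), where 6.99% of 8572 genes passed, 2.67% as higher and 4.32% as lower. Neither fit has a check without each library, since no degrees of freedom would be left.

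In OVX luminal cells Hbegf stood at 74.1 and 61.9 CPM, from 4 and 11 UMIs, against 18.9 and 23.8 in OVX basal cells, from 9 and 28 UMIs. The luminal value was higher in both libraries. The log2 fold change, luminal over basal, was 1.47 ± 0.52 and missed the threshold (SE; edgeR adjusted p = 0.0901, where 4.19% of 5656 genes passed, 2.85% as higher and 1.34% as lower). In cells with at least 400 genes the edgeR adjusted p of Hbegf was 0.0288, where 247 of 4588 genes passed. That was the 1 setting of 5 in which Hbegf passed, and its edgeR adjusted p reached 0.705 in the others. The remaining members tested between layers did not pass. Errfi1 stood at 21.0 and 9.04 CPM in WT suprabasal cells, against 37.7 and 20.3 in WT basal cells (log2 fold change -0.77 ± 0.31 SE, edgeR adjusted p = 0.111 under the share gate). Egfr had a log2 fold change of -0.10 ± 0.22 between these WT layers under the share gate (edgeR adjusted p = 0.841) and -0.83 ± 0.57 under the majority gate (edgeR adjusted p = 0.541). Egfr stood at 55.6 and 113 in OVX luminal cells, against 81.7 and 137 in OVX basal cells (edgeR adjusted p = 0.744).

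Of these 4 sets of cells, Dusp6 and Spry2 had their lowest levels in WT suprabasal cells, from few counts. Dusp6 stood at 3.15 and 3.01 CPM there, from 3 and 1 UMIs, against 11.5 and 7.59 in WT basal cells, and did not pass the filter for a test. In OVX luminal cells it stood at 18.5 and 28.2, from 1 and 5 UMIs, against 46.1 and 41.7 in OVX basal cells (edgeR adjusted p = 0.680). Spry2 stood at 9.45 and 9.04 CPM in WT suprabasal cells, against 18.3 and 14.6 in WT basal cells (edgeR adjusted p = 0.272). It stood at 37.1 and 33.8 in OVX luminal cells, against 62.8 and 47.6 in OVX basal cells (edgeR adjusted p = 0.734). Under the share gate the Areg UMIs lay in basal cells of WT library 1 (10 UMIs) and in basal and suprabasal cells of WT library 2 (4 and 1 UMIs).

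**Figure D3:**
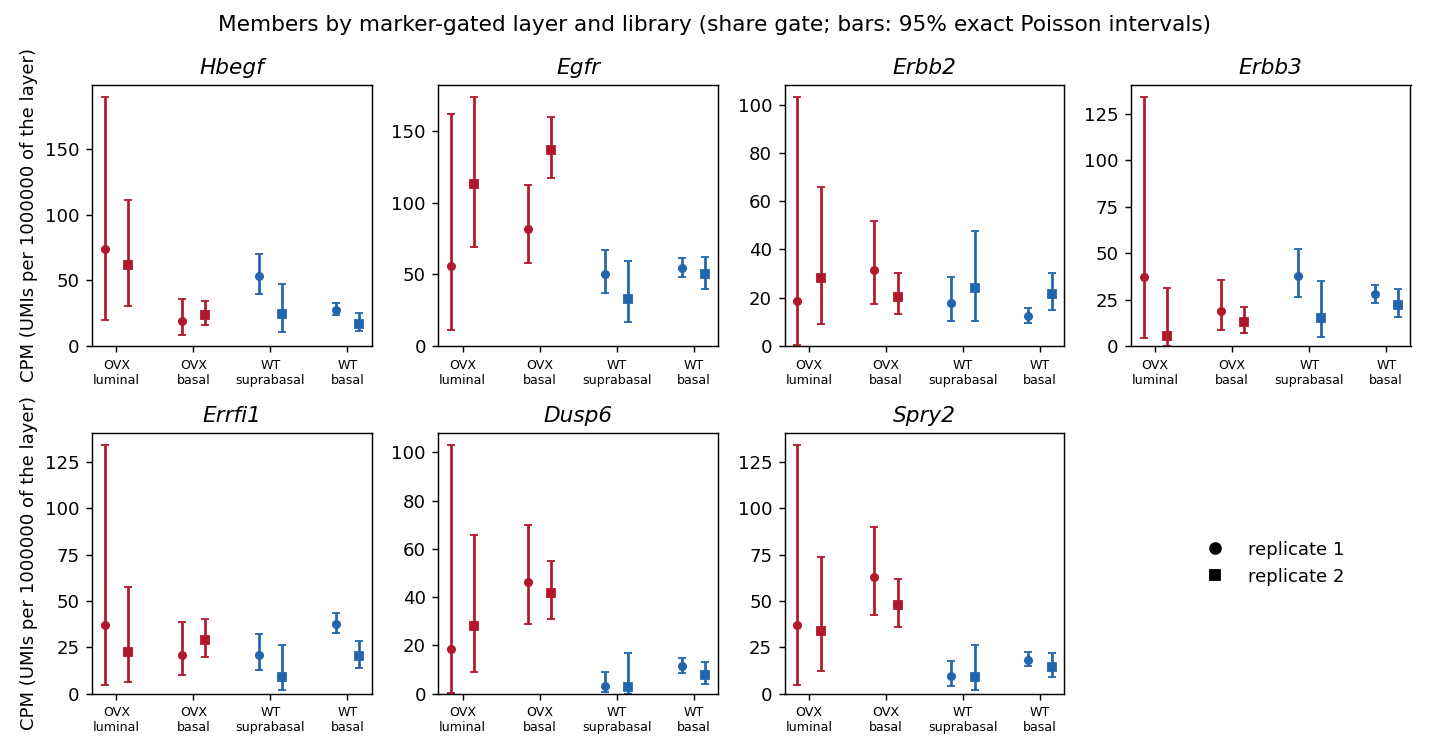
CPM (UMIs per 1000000 UMIs) in share-gated layers of each library, OVX luminal and basal cells in red and WT suprabasal and basal cells in blue, for the 7 tested members. Points are libraries (circle, replicate 1, and square, replicate 2) and bars are 95% exact Poisson intervals. Hbegf is at 74.1 and 61.9 in OVX luminal cells, against 18.9 and 23.8 in OVX basal cells.

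Several other measures moved with the Dusp6 difference. Immune markers (8 genes, none at 0 in any whole library) summed to 875 and 473 CPM in OVX, against 121 and 133 in WT, and immune-gated cells held 6 of the 107 OVX UMIs of Dusp6 and 5 of the 77 WT UMIs. Without immune- and stromal-gated cells the Dusp6 log2 fold change was 2.2 (edgeR adjusted p = 0.0327), against 2.12 with them. In basal-gated cells the same 8 markers summed to 10.6 and 7.09 CPM in OVX, against 4.58 and 12.8 in WT. The immediate early and dissociation list summed to 1386 and 1214 CPM in OVX, against 639 and 798 in WT, with 0 of its 10 tested members past the edgeR threshold, 2 of them (Jund and Dusp1) at an unadjusted p under 0.05. Over all 11495 genes tested 5.11% passed, and 2298 had an unadjusted p under 0.05. Fosb, also on the list, had too few counts for the test in whole libraries, but passed there with at least 400 genes per cell (edgeR adjusted p = 0.0327), with all deposited barcodes (0.0245) and with no filter (0.00612). With DESeq2 Fosb did not pass in whole libraries (adjusted p = 0.116). Its log2 fold change there was 3.42 without WT library 1 and 3.96 without WT library 2. In basal-gated cells, where 4.06% of all tested genes passed, 1 of 11 passed, Fosb, with 6 and 9 UMIs in OVX, against 1 and 1 UMIs in WT (edgeR adjusted p = 0.0248), and it was lost without WT library 1 (0.125) and without WT library 2 (0.0818), and with DESeq2 (0.0786). The part of these early genes in the Dusp6 result, and that of the higher mitochondrial and Malat1 shares, was not tested.

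Of 62 other genes of the pathway, 48 were tested in whole libraries, 1 rose and 0 fell after ovariectomy, with a median log2 fold change of 0.23, against -0.03 over all genes tested. Over all genes tested 5.11% passed, 2.58% as higher, so the pathway list's 1 call is not above that background. The gene that rose was Phlda1, a gene induced by growth factor signalling. Phlda1 stood at 394 and 293 CPM in OVX, against 68.1 and 90.2 in WT (log2 fold change 1.97 ± 0.41 SE, edgeR adjusted p = 0.0357). Its groups were far apart, but its adjusted p was 0.311 without OVX library 1, 0.204 without OVX library 2 and 0.138 with the replicate block. In basal-gated cells Phlda1 was again the 1 gene called of 43 tested (edgeR adjusted p = 0.0307), and the call was lost without OVX library 1 (0.286), without OVX library 2 (0.263) and with the replicate block (0.156). Over all genes tested in basal-gated cells 4.06% passed, 1.82% as higher.

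By role, 0 of 2 ligands, 0 of 4 shedding genes, 0 of 21 transduction genes and 0 of 15 feedback and turnover genes tested passed in whole libraries, and 1 of 6 target genes did, where 5.11% of all tested genes passed. With lists this short, counts of 0 or 1 do not set a role apart from that background. The tested genes that follow did not pass and were chosen after their values were seen. Egr1, an immediate target of ERK signalling, had a log2 fold change of 1.75 ± 0.48 and missed the threshold (edgeR adjusted p = 0.0828). Spry1, a further Sprouty gene, had 1.62 ± 0.53 (edgeR adjusted p = 0.136), and the ligand Btc 1.67 ± 0.56 (edgeR adjusted p = 0.143). The neuregulin Nrg1, a ligand of Erbb3, had -0.89 ± 0.63 (edgeR adjusted p = 0.486). Ccnd1, on the target list, lay nearer the threshold than Egr1, at 1.51 ± 0.4 (edgeR adjusted p = 0.076). Lower in OVX were Sh3kbp1, at -1.48 ± 0.43 (edgeR adjusted p = 0.103), and Map2k1, at -1.29 ± 0.43 (edgeR adjusted p = 0.142). Positive values were found for 31 of the 48 pathway genes tested. The share of positive values over all tested genes was not counted, so no rise of the pathway is read from this. Erbb4, the remaining receptor of the family, had no UMI in any library.

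**Figure D4:**
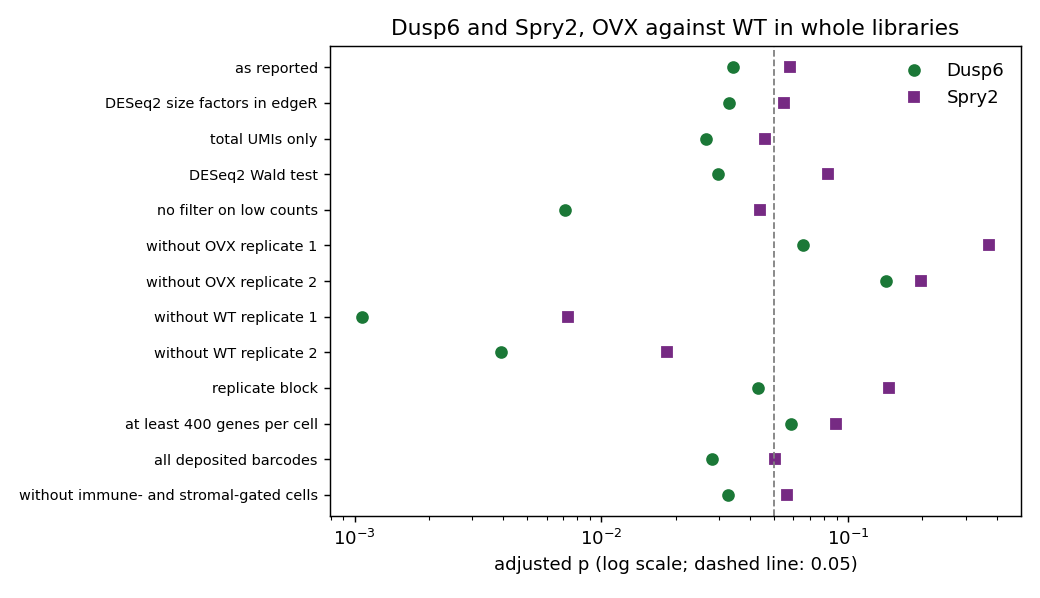
Adjusted p of Dusp6 (green circles) and Spry2 (purple squares), OVX against WT in whole libraries, under each processing choice listed on the left, on a log axis with a dashed line at 0.05. Dusp6 is at 0.0341 as reported and lies above the line without OVX replicate 1 (0.0655), without OVX replicate 2 (0.142) and with at least 400 genes per cell (0.0589).

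Genes most like each member were sought over 10 sums of basal, suprabasal and luminal cells by library, among 3582 genes, by Pearson correlation of log2 levels (10 CPM added). These sums share libraries, depth and group, so the values are descriptions. The nearest genes to Dusp6 were Zbtb38, Gm6030 and Arhgap5 (r = 0.95, 0.942 and 0.934), and those to Spry2 were Rps24-ps2, Ccdc174 and Ivd (0.973, 0.963 and 0.960). Those to Egfr were Oraov1, Ndufaf2 and Phactr4 (0.945, 0.939 and 0.931), and those to Erbb3 were Bicd2, Acly and Nol11 (0.953, 0.896 and 0.879). Those to Hbegf were Crot, Dnajb12 and Ppl (0.945, 0.938 and 0.930). Erbb2 was nearest to Prorsd1, Tgoln1 and Asph (0.865, 0.863 and 0.847), and Errfi1 to Atg5, Ctnna1 and Smarcad1 (0.819, 0.758 and 0.758).

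The members lie on several chromosomes of GRCm38 (GENCODE vM21). Areg (91139599 to 91148432) and Ereg (91074622 to 91093646) lie on chromosome 5, and Dusp6 (99263231 to 99267489) and Erbb3 (128567523 to 128589652) lie on chromosome 10. Egfr (16752203 to 16918158) lies on chromosome 11, Errfi1 (150853919 to 150868892) on chromosome 4 and Spry2 (105891947 to 105896819) on chromosome 14. For all 10 members, the final 500 bases of the transcript shared 0 of 451 stretches of 50 bases with other genes. Dusp6, Spry2, Hbegf and Areg overlap no other annotated gene, while Egfr, Errfi1 and Ereg each overlap an antisense gene.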

How the data were processed

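Drop-seq was run on pronase-digested vaginal epithelium, per the labels' protocols. The deposited matrices are whole-number UMI counts, genes by cell barcodes, not normalized by the authors, and each lists the genes with at least 1 UMI in that library, so a gene without a row was taken as 0. The submitters' processing notes name mm10 and Seurat 2. The sources used here name no aligner, annotation or rule for keeping barcodes. The 10 members, the gene lists and the markers were chosen with earlier results of these data known, and the text names the members in every comparison, listed pathway genes past the threshold, and the 3 genes most like each member (7 members with at least 100 UMIs). Pathway genes named below the threshold were chosen after their values were seen.

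Counts of kept cells were summed per library and gate and tested with edgeR 4.0.16 (TMM, filterByExpr, quasi-likelihood F-test, two-sided, R 4.3.3), with p-values adjusted over all genes tested and a threshold of 0.05. SEs are the fold change divided by the square root of F. DESeq2 1.42.0, other scalings, no filter, other cell filters, other gates, a replicate block and each library left out were alternatives. No doublet caller was run. Depth ranged from 798916 to 5830417 UMIs per library in kept cells, and Poisson and binomial intervals (95%, exact) and the limit of 3 counts cover counting error only. The suprabasal test between groups and the test of layer by group, both planned, were not run, for lack of OVX cells, and the planned layer test was run in WT libraries. Replicate numbers in the titles do not pair the samples, as far as the labels say. The scripts were tested on simulated data.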

Additional observations from a re-analysis of the deposited data

How the results depend on the processing

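Limits are the 4 libraries, the depth, which left 7 of 10 members with enough UMIs to test, and a lone library taken to vary like the other group where 1 is left out. In whole libraries the count of genes past the threshold was 587, with 308 to 1884 when each library was left out in turn and 1356 with no filter on low counts. In basal-gated cells it was 431, with 132 to 1448 and 873. Of the calls, 38.6% were higher in OVX with DESeq2 run on unfiltered genes in whole libraries, 47.0% with edgeR and no filter and 50.6% as reported. In basal-gated cells these shares were 34.0%, 40.1% and 44.8%. Scaling by total UMIs moved the median log2 fold change of all genes to 0.112, against -0.031. With the replicate block 517 genes passed in whole libraries and 343 in basal-gated cells. The correlation of same-numbered deviations was -0.568 and -0.527, and a crossed pairing, chosen after seeing the data, called 3489 and 2750 genes. In WT suprabasal against basal cells 599 genes passed, 176 with at least 80% of marker UMIs and 1477 under the share gate, added after seeing the data. In OVX luminal against basal cells 237 passed, and 157 with no filter. Leaving out a library was not possible for these within-library fits.

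Dusp6 kept a positive log2 fold change in every setting run, from 1.83 to 2.50 in whole libraries and from 1.89 to 2.61 in basal-gated cells, and Spry2, Egfr (positive) and Erbb3 (negative) also kept their sign in both. Members near 0 turned sign, and the cause was not tested. In whole libraries Hbegf was at 0.0715 with total UMIs only and 0.0728 with at least 400 genes per cell, and between -0.44 and 0.44 with each library left out. Errfi1 was at 0.091 with total UMIs only, 0.0252 with the replicate block, 0.0164 with all deposited barcodes and 0.0575 without immune- and stromal-gated cells, and between -0.48 and 0.57 with each library left out. Erbb2 ranged between -0.0717 and 0.577 without each library in turn. In basal-gated cells Errfi1 was at 0.00362 with total UMIs only and between -0.518 and 0.585 without each library, Hbegf between -0.603 and 0.0869, and Erbb2 between -0.0342 and 0.987. In WT suprabasal against basal cells Spry2 was at 0.15 with at least 80% of marker UMIs.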
